A study of Mus musculus with 4 samples.

Results

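The 28 genes described here are the transcriptional repressor Rest with 10 of its corepressors and helper phosphatases (11 genes), and 17 genes known as its targets. They were taken by symbol from a list chosen with earlier results of these data known, among 21439 genes with a level in every library. All 28 had an FPKM (fragments per kilobase of transcript and sequencing depth, rescaled here so that the libraries share a scale), and 24 stood at 1 FPKM or more in all 4 libraries. Reads on a fixed list of exons were available for 26 members, of which 24 had at least 50 such reads in every library. Vgf and Cdk5r2 had FPKM only. Bdnf (8 to 20 reads) and Calb1 (0 reads) lay under the minimum in every library.

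REST, the RE1-silencing transcription factor, is a zinc-finger repressor that binds a 21-base element (RE1) in neuronal genes and keeps them low outside neurons. It recruits the SIN3A and CoREST (RCOR1) scaffolds, which bring the deacetylases HDAC1 and HDAC2, the histone demethylase KDM1A and the histone methyltransferase EHMT2 (G9a), while the small CTD phosphatases CTDSP1, CTDSP2 and CTDSPL act with it at target promoters. Its targets include granins of secretory granules, ion channels and synaptic proteins, and neuroendocrine cells can express many of them while they still make REST.

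The cells were N2A, a mouse neuroblastoma line, transfected by lipid in suspension for 5 h and then grown for 3 d. The control received the control shRNA (shControl), the Ptbp1 knockdown an shRNA against Ptbp1, the Ptbp2 knockdown an shRNA against Ptbp2, and the double knockdown both shRNAs. Both targets are RNA-binding proteins that bind pyrimidine-rich stretches and regulate splicing; PTBP2 is the form typical of neurons. The poly(A) libraries were strand-specific and read as 100-base pairs. There was 1 library per group, so no difference could be set against replicates, no test was run, and every interval covers counting error only. Intervals of exon reads are narrower than that error, since a read over a junction counts on both of its exons. The 3 comparisons share the control library. The sample numbers of both libraries with the Ptbp2 shRNA run together, apart from those of control and the Ptbp1 knockdown. A difference shared by both libraries with the Ptbp2 shRNA therefore cannot be told apart from a difference between these sets of libraries.

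Exon reads summed to between 186 M and 232 M per library. The targeted genes went with the labels. By scaled CPM (exon reads scaled to the depth of each library), Ptbp1 stood at 650 in control, 197 with the Ptbp1 shRNA, 746 with the Ptbp2 shRNA and 148 with both. Ptbp2 stood at 97.9, 200.4, 25.6 and 42.3 CPM in the same order, so the double knockdown kept more Ptbp2 than the Ptbp2 knockdown. Of 10 neuroblastoma markers 7 or 8 were at 1 FPKM or more, with a summed level of 610.2 to 752 FPKM, while the neurofilament genes Nefl and Nefm were under 0.05 FPKM. Of 7 glial markers 1 passed 1 FPKM, with a summed level of at most 2.78 FPKM, of 7 fibroblast markers at most 1 did (Pdgfra, 1.10 in the Ptbp1 knockdown), and none of the 4 immune markers measured did.

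A member was called higher or lower when its scaled CPM differed from control at least 1.5-fold (0.58 on the log2 scale) and the 95% Poisson intervals did not overlap. By that rule 14.2% of the 11694 genes tested were higher and 3.63% lower in the Ptbp1 knockdown. For the Ptbp2 knockdown the shares were 5.4% higher and 8.65% lower, and for the double knockdown 8.66% higher and 6.64% lower. At 2-fold they were 5.92% higher and 0.274% lower with the Ptbp1 shRNA, 1.19% and 2.04% with the Ptbp2 shRNA, and 2.36% and 1.48% with both; of the members, Kcnh7 passed 2-fold in the Ptbp1 and double knockdowns, and Rcor1, at a lower level, in the Ptbp2 knockdown. The balance in the Ptbp1 knockdown moved with abundance. Genes with a mean under 1 CPM had a median log2 difference of 0.69, genes of 1 to 10 CPM one of 0.36 and genes of 100 CPM or more one of -0.19. It also moved with the scaling, since scaling by the total of exon reads adds 0.17 to every log2 difference of the Ptbp1 knockdown, 0.12 in the double knockdown and 0.03 in the Ptbp2 knockdown. With that scaling, 2351 genes were higher and 152 lower in the Ptbp1 knockdown (1656 and 425 with the scaling used here), and 1501 and 491 in the double knockdown (1005 and 771).

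None of the 11 complex members was called in the Ptbp1 knockdown, where their median log2 difference was -0.13, beside 0.02 over all genes tested. With the Ptbp2 shRNA 1 was higher (Ctdsp2) and 1 lower (Rcor1), with a median of 0.17 beside 0.01. In the double knockdown 1 was higher (Ctdspl) and 1 lower (Rcor1), with a median of -0.02 beside 0.01. Against the background shares above, that is 1 of 11 in each direction. The sign of the complex's median in the Ptbp1 knockdown turned to 0.03 with scaling by the total, and in the double knockdown to 0.10.

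**Figure D1:**
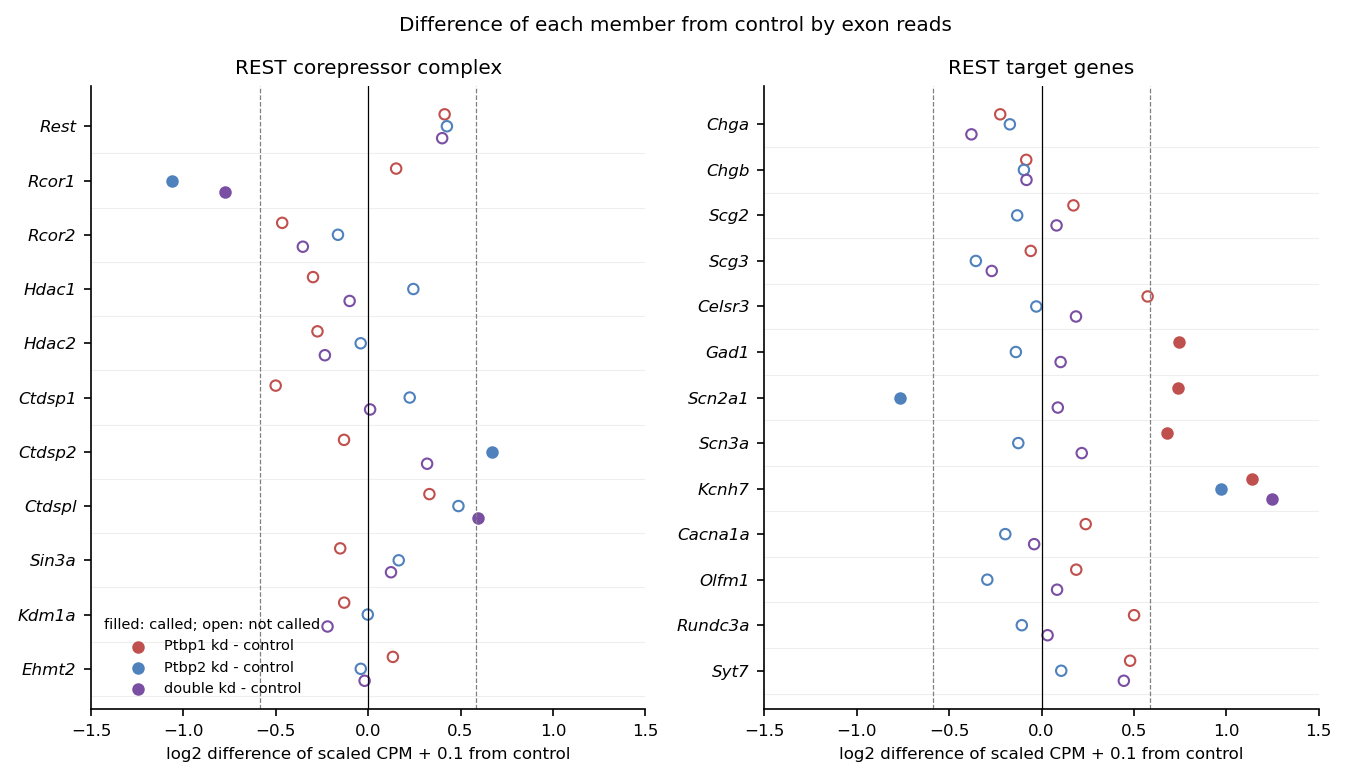
Log2 difference of scaled CPM + 0.1 from control (horizontal axis) for the 11 complex members (left) and the 13 target genes with enough reads (right), 1 point per knockdown library. Filled points were called and dashed lines mark 1.5-fold. Rcor1 lies left of the line in the Ptbp2 and double knockdowns, and Kcnh7 lies right of it in all 3.

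Rest itself (mm9 chromosome 5, 77694519 to 77712722, plus strand) was a little above control in every knockdown by exon reads. By FPKM it was close to control, but that depends on which assembled transcripts were summed. It stood at 13.8 CPM in control (13.3 to 14.3), 18.4 with the Ptbp1 shRNA (17.8 to 19.0), 18.6 with the Ptbp2 shRNA (18.0 to 19.2) and 18.3 with both (17.7 to 18.8). The control lay below all 3 knockdowns, which overlapped each other in their intervals. The ratios to control were 1.33, 1.35 and 1.32, under the 1.5-fold threshold. By rescaled FPKM, Rest stood at 6.10 in control and at 6.51, 6.39 and 6.32 in the Ptbp1, Ptbp2 and double knockdowns. The control value adds transcripts of 2.49, 1.98 and 1.63 FPKM, the last of which starts in the intron before the last exon. Each knockdown value is that of its spliced transcript only. Unspliced fragments in the intron were left out in every library. Per kilobase of exon, Rest at 3.24 CPM in control was below Rcor1 (8.46) and far below the deacetylase gene Hdac2 (210.0).

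The RNA of Rest can be spliced with a short neural exon between its last coding exons, which yields the truncated form known as REST4. The assembled transcripts differed between the libraries there. In the control, 1 of 4 assembled transcripts carried a 16-nucleotide exon at chromosome 5, 77708924 to 77708939, between the third exon (84 nucleotides, 77704259 to 77704342) and the last (from 77709728), at 2.49 FPKM. Another control transcript, at 1.98 FPKM, joined the third exon to a site 18560 bases from the start of the RefSeq model. That site lies past the end of the model, at 18203 bases. In the double knockdown the only spliced transcript carried the 16-nucleotide exon, at 6.32 FPKM. In the Ptbp1 and Ptbp2 knockdowns the spliced transcript joined the third exon directly to the last, at 6.51 and 6.39 FPKM. The length of 16 nucleotides shifts the reading frame.

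Junction reads bore on the same step in a different way. The fixed list of exon trios holds the direct junction from the third exon to the last, but not those of the 16-nucleotide exon. The junction to the site past the end of the RefSeq model is not in it either. Reads from the second exon to the third numbered 58 in control, 60 with the Ptbp1 shRNA, 79 with the Ptbp2 shRNA and 114 with both. Reads on the direct junction from the third exon to the last numbered 3, 0, 0 and 3 in the same libraries. The direct junction thus held few reads in every library, also in both knockdowns whose assembled transcript contains it. The counts of 0 allow up to 5% of the upstream junction in the Ptbp1 knockdown and 3.8% in the Ptbp2 knockdown. Inclusion of the 16-nucleotide exon in each library was therefore not measured by junction reads here. No read skipped the third exon from the second to the last in any library.

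The intron before the last exon was also covered by assembled fragments. Control and the double knockdown had fragments of 0.95 and 1.15 FPKM over nearly the same stretch (77705021 to 77705870, and 77705023 to 77705875). A further control transcript ran from 77706049 to the end of the 16-nucleotide exon and was spliced from there to the last exon, at 1.63 FPKM. The double knockdown had an unspliced fragment over most of that stretch (77706004 to 77708821, 1.23 FPKM) and another just after the third exon (77704355 to 77704947, 0.63 FPKM). The single knockdowns had only a fragment directly before the last exon, at 0.31 and 0.41 FPKM.

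**Figure D2:**
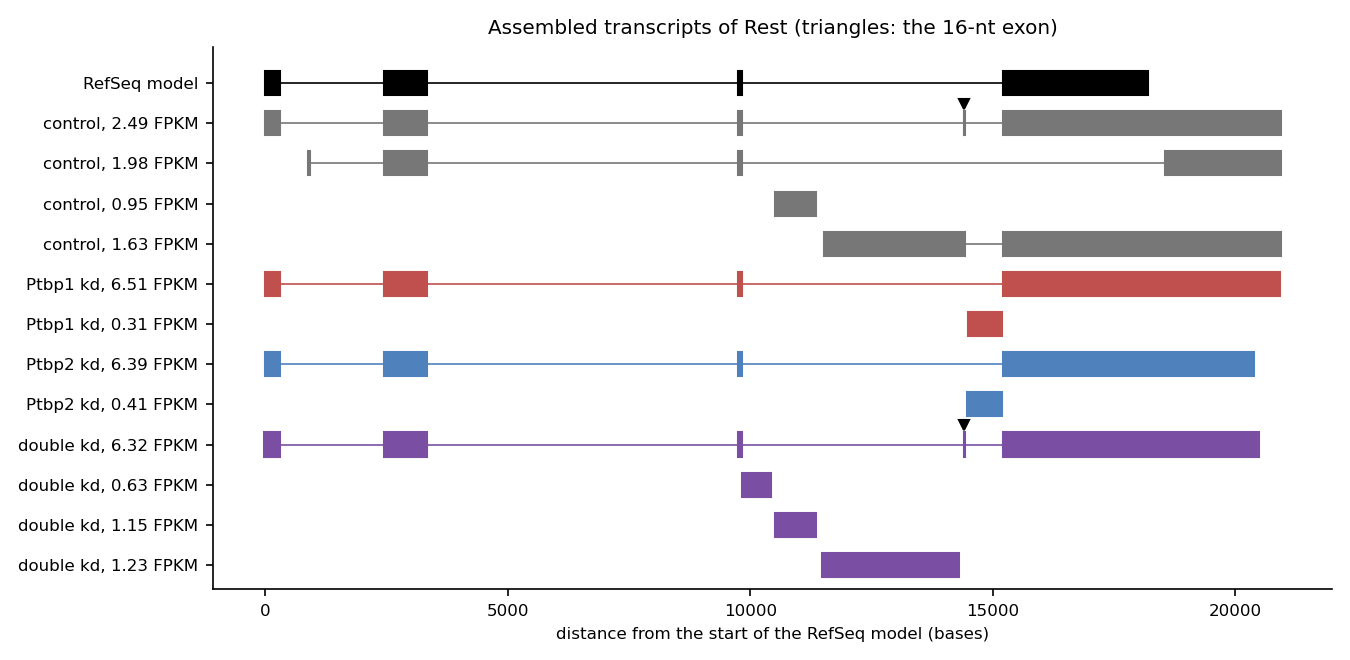
Assembled transcripts of Rest in each library, with boxes for exons and lines for introns, against distance from the start of the RefSeq model in bases. Labels give the rescaled FPKM. The 16-nucleotide exon (triangles) is in a control transcript at 2.49 FPKM and in the double knockdown transcript at 6.32 FPKM.

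Among the scaffolds, Rcor1 (CoREST, chromosome 12, 112278009 to 112351597) was the member called lower. It stood at 23.03 CPM in control (22.4 to 23.7), 25.6 with the Ptbp1 shRNA (24.9 to 26.3), 11.0 with the Ptbp2 shRNA (10.5 to 11.4) and 13.4 with both (12.9 to 13.9). Both libraries with the Ptbp2 shRNA were low and the other libraries high, with no overlap. These are also the sets that differ in their sample numbers. It was 2.09-fold lower in the Ptbp2 knockdown (1.99 to 2.20) and 1.72-fold lower in the double knockdown (1.64 to 1.80). FPKM gave 7.40, 9.77, 4.80 and 5.38, which is the same order but under the threshold on the log2(FPKM + 1) scale (-0.53 and -0.40).

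The lower level of Rcor1 ran over the whole gene. With the Ptbp2 shRNA all 12 exons were below control, from 0.42 of control at exon 8 to 0.70 at exon 1. In the double knockdown all 12 were below control too, from 0.31 at exon 1, where control had 12 reads and the double knockdown 4, to 0.78 at exon 9. With the Ptbp1 shRNA all 12 lay at 1.03 to 1.27 of control. The last exon held most reads, 2446 in control, 2339 with the Ptbp1 shRNA, 1139 with the Ptbp2 shRNA and 1432 with both.

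**Figure D3:**
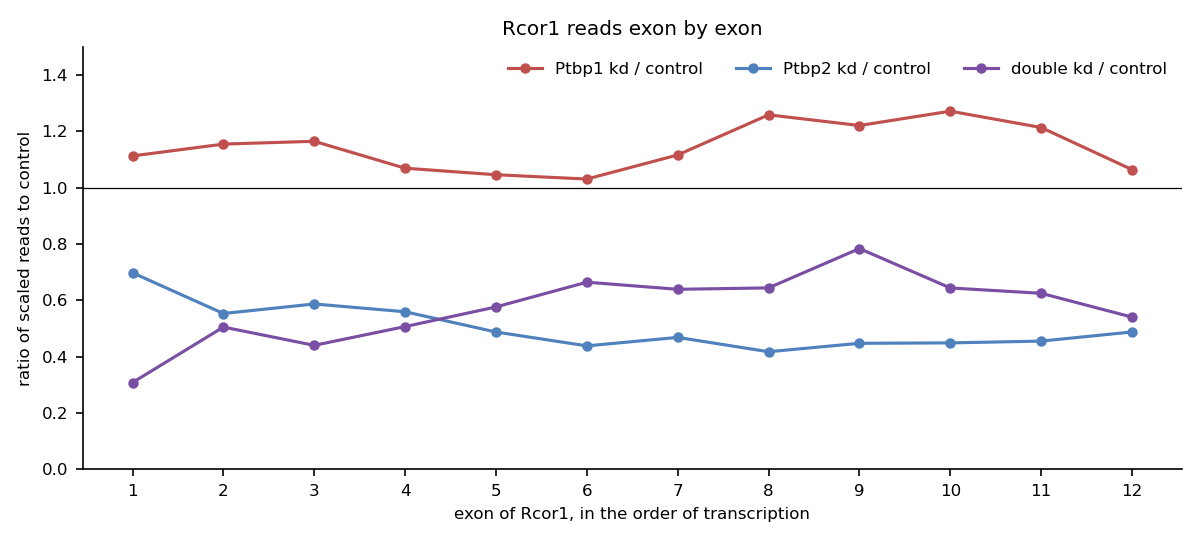
Reads on each of the 12 exons of Rcor1 in each knockdown library, divided by control after scaling, in the order of transcription. The Ptbp2 knockdown and the double knockdown lie below 1 at every exon and the Ptbp1 knockdown above 1.

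The paralogue Rcor2 was at 131 CPM in control, 95.1 with the Ptbp1 shRNA, 117 with the Ptbp2 shRNA and 103 with both, and was not called. Rcor3, another paralogue from the list of further corepressor subunits, was called lower in the Ptbp2 knockdown. It stood at 25.98 CPM in control, 26.2 with the Ptbp1 shRNA, 16.7 with the Ptbp2 shRNA and 19.0 with both. That is 1.56-fold lower in the Ptbp2 knockdown (1.49 to 1.63) and 1.36-fold lower in the double knockdown, which missed the threshold.

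The CTD phosphatases went separate ways. Ctdsp2 (chromosome 10, 126415773 to 126437031) stood at 100.3 CPM in control (98.9 to 102), 91.5 with the Ptbp1 shRNA (90.2 to 92.9), 159.8 with the Ptbp2 shRNA (158 to 162) and 125 with both (124 to 126). It was 1.59-fold higher in the Ptbp2 knockdown (1.57 to 1.62), and FPKM also called it higher there (18.6 to 32.8). Ctdspl (chromosome 9, 118835654 to 118953237), at 3.97 CPM in control (3.71 to 4.24), stood at 5.02, 5.61 and 6.04 CPM in the Ptbp1, Ptbp2 and double knockdowns. Only the double knockdown passed the threshold, at 1.52-fold (1.40 to 1.66), and it missed it when the scaling factors came from all genes with reads, with a pseudocount of 1 CPM (log2 0.50) and by FPKM (0.42). Ctdsp1 was not called: it stood at 45.6 CPM in control, 32.2 with the Ptbp1 shRNA, 53.3 with the Ptbp2 shRNA and 46.0 with both.

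The deacetylases, the histone-modifying enzymes Kdm1a and Ehmt2, and the scaffold Sin3a stayed within 1.5-fold of control by exon reads. The log2 differences of Hdac1, Hdac2, Sin3a, Kdm1a and Ehmt2 ran from -0.30 to 0.24. Hdac1 differed between the measures: it had 243 CPM in control, yet only 2.73 FPKM, and by FPKM it was called higher in the Ptbp1 knockdown (8.44) and in the double knockdown (5.00). In the Ptbp1 knockdown the RefSeq transcript of Hdac1 is listed at 0, and the whole FPKM of its locus belongs to a transcript assembled over chromosome 4, 129191959 to 129196404, which reaches into the neighbouring gene Marcksl1. The exon reads of Hdac1 in that library, at 197 CPM, were not above control. Hdac1 is reported as uncertain.

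**Figure D4:**
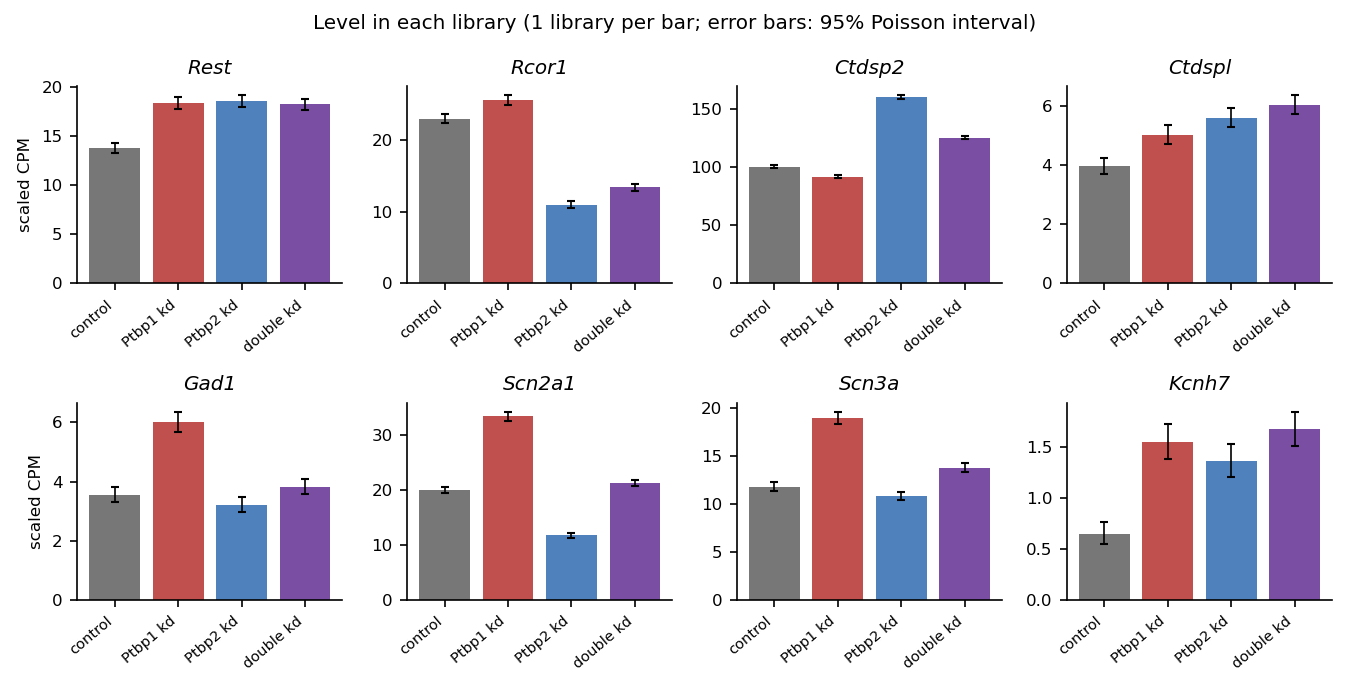
Scaled CPM of Rest and of the 7 members called in at least 1 comparison, 1 bar per library with its 95% Poisson interval. Rcor1 is low in the Ptbp2 and double knockdowns, Scn2a1 is high in the Ptbp1 knockdown and low in the Ptbp2 knockdown, and Kcnh7 is low in control only.

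Of the cassette exons (exons flanked by exons that can be joined without them) of complex members, 126 in 10 genes had at least 20 informative junction reads in control and in the Ptbp1 knockdown. Inclusion sets the average of the junctions into and out of the exon against the reads that skip it. With a difference of at least 20 points and 95% Wilson intervals apart, no exon of the complex was called in the Ptbp1 knockdown and none in the double knockdown, and 1 of 125 was lower in the Ptbp2 knockdown. The background among all cassette exons tested was 0.205% higher and 0.0722% lower with the Ptbp1 shRNA, 0.0208% and 0.106% with the Ptbp2 shRNA and 0.311% and 0.202% with both. At a difference of 10 points the background was 0.345% higher and 0.223% lower with the Ptbp1 shRNA, 0.0693% and 0.341% with the Ptbp2 shRNA, and 0.481% and 0.484% with both, and exons of the complex numbered 0 higher and 1 lower, 0 and 2, and 0 and 0.

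The called exon belongs to Sin3a, which stood at 129.9 CPM in control, 117 with the Ptbp1 shRNA, 146 with the Ptbp2 shRNA and 141 with both. It is a 108-nucleotide exon in the 5′ untranslated region (chromosome 9, 56928902 to 56929009). Its inclusion was 86.5% in control (79.9 to 91.2), 71.7% with the Ptbp1 shRNA (63.0 to 79.0), 65.3% with the Ptbp2 shRNA (57.4 to 72.5) and 78.7% with both (72.3 to 84.1). The control was highest and the Ptbp2 knockdown lowest, and their intervals did not overlap. The junctions on either side were uneven, with 40 reads upstream and 204 downstream in control. When read from the other annotated upstream exon (56919847 to 56919870), inclusion was 94.1% in control and 88.6% in the Ptbp2 knockdown, with overlapping intervals, so the call rests on the choice of upstream exon. From there the Ptbp1 knockdown was lowest, at 79.3% (70.3 to 86.2), apart from control (88.3 to 97.1), and the double knockdown stood at 90.1%.

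Ehmt2 came closest among coding exons of the complex. This and the other exons below that miss the 20-point threshold were chosen after their values were seen. The exon of 102 nucleotides (chromosome 17, 35042555 to 35042656) keeps the reading frame. Its inclusion was 51.2% in control (47.4 to 55.0), 55.9% with the Ptbp1 shRNA (52.1 to 59.7), 31.5% with the Ptbp2 shRNA (27.99 to 35.4) and 52.5% with both (48.7 to 56.3). The Ptbp2 knockdown stood apart from the other 3 libraries and fell by 19.6 points from control. The ratio from SpliceTrap went from 53.6% to 33.1%. The levels of Ehmt2 itself were 183, 200.4, 178 and 180.2 CPM in the same order. A 60-nucleotide exon of the demethylase Kdm1a (chromosome 4, 136137955 to 136138014), at 42.7% in control and 36.3%, 40.5% and 33.7% in the Ptbp1, Ptbp2 and double knockdowns, did not reach 10 points.

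Further subunits gave 1 called exon among 336 in the double knockdown and none among 335 and 336 in the Ptbp1 and Ptbp2 knockdowns. It was a coding exon of 108 nucleotides in Gse1, a protein found with CoREST and KDM1A (chromosome 8, 123098071 to 123098178). Inclusion was 99.6% in control (98.7 to 99.9), 92.6% with the Ptbp1 shRNA (90.4 to 94.3), 97.5% with the Ptbp2 shRNA (96.0 to 98.4) and 69.9% with both (66.5 to 73.0). Only the double knockdown was far from full inclusion. Kdm5c, a demethylase of histone H3 lysine residues, has a coding exon of 138 nucleotides (chromosome X, 148705237 to 148705374) at 73.0% in control, 74.0% with the Ptbp1 shRNA, 55.7% with the Ptbp2 shRNA and 56.1% with both. Both libraries with the Ptbp2 shRNA were low. Smarcc2 (BAF170), a subunit of SWI/SNF remodellers, has a coding exon of 93 nucleotides (chromosome 10, 127918738 to 127918830) at 5.00% in control, 21.7% with the Ptbp1 shRNA, 3.39% with the Ptbp2 shRNA and 17.7% with both. There the libraries with the Ptbp1 shRNA were high. A 58-nucleotide exon of Rcor3, which shifts the frame, was at 80.4% in control and at 66.1%, 64.7% and 65.5% in the Ptbp1, Ptbp2 and double knockdowns, below control in all 3.

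The sequences of these 4 coding exons, from GENCODE M21 transcripts (GRCm38), show what each library kept or skipped. Capitals mark the alternative exon and lower case the last 15 and first 15 bases of its neighbours, 5′ to 3′ on the RNA strand.
Ehmt2: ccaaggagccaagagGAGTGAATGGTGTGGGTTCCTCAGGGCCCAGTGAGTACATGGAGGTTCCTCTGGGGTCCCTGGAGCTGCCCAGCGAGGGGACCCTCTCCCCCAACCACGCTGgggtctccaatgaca
Gse1: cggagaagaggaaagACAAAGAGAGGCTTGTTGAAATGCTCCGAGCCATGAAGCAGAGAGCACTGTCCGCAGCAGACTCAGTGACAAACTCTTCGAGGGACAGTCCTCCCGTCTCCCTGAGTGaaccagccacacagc
Kdm5c: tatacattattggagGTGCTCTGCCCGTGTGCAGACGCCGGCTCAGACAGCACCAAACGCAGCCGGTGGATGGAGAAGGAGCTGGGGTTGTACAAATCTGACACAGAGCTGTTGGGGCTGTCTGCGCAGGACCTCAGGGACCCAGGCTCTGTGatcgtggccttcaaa
Smarcc2: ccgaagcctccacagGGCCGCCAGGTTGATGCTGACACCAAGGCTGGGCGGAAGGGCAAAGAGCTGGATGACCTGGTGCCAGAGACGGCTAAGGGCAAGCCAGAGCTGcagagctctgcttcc
All 4 exons are a multiple of 3 bases long, so the protein is read in the same frame with and without them.

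**Figure D5:**
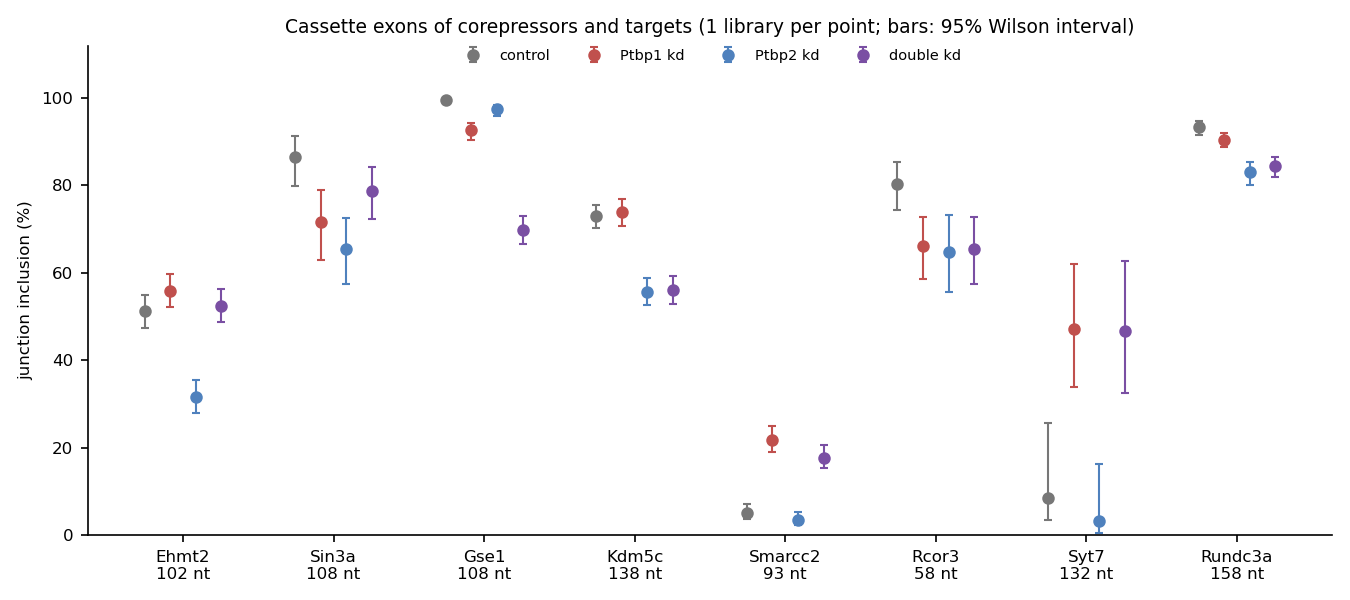
Junction inclusion in percent of 8 cassette exons of corepressors and targets, 1 point per library with its 95% Wilson interval. The Ehmt2 exon is low in the Ptbp2 knockdown (31.5%), the Gse1 exon in the double knockdown (69.9%), and the Syt7 exon is high in both libraries with the Ptbp1 shRNA (47.1% and 46.7%).

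Of the 13 target genes with enough exon reads, 4 were called higher and 0 lower in the Ptbp1 knockdown, beside 14.2% and 3.63% of all genes. The 4 were Kcnh7, Gad1, Scn2a1 and Scn3a, 3 of them ion channel subunits. With the Ptbp2 shRNA 1 was higher (Kcnh7) and 1 lower (Scn2a1), and in the double knockdown 1 was higher (Kcnh7) and 0 lower. The median log2 difference of the 13 was 0.48 with the Ptbp1 shRNA, -0.13 with the Ptbp2 shRNA and 0.08 with both, and kept its sign under all 4 scalings tried. With the Ptbp1 shRNA 10 of the 13 were above control (51.94% of all genes tested), and by FPKM 13 of 14 (57.38%). These genes were chosen with earlier results of these data known, so the shares are descriptive only. With scaling by the total, 7 of the 13 were called higher in the Ptbp1 knockdown, Celsr3, Rundc3a and Syt7 being added.

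Scn2a1 (chromosome 2, 65508054 to 65605504), a pore-forming subunit of a neuronal sodium channel, moved in opposite directions in the single knockdowns. It stood at 19.9 CPM in control (19.3 to 20.5), 33.3 with the Ptbp1 shRNA (32.5 to 34.1), 11.7 with the Ptbp2 shRNA (11.2 to 12.1) and 21.2 with both (20.6 to 21.7). No knockdown other than the double one came near control. It was 1.67-fold higher in the Ptbp1 knockdown (1.61 to 1.74) and 1.70-fold lower in the Ptbp2 knockdown (1.62 to 1.79). FPKM gave 2.35, 5.24, 2.08 and 3.29, so the lower value in the Ptbp2 knockdown was not called by FPKM.

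Scn3a, a related sodium channel subunit next to it on chromosome 2 (65295175 to 65405549, minus strand), stood at 11.8 CPM in control (11.4 to 12.3), 19.0 with the Ptbp1 shRNA (18.4 to 19.6), 10.8 with the Ptbp2 shRNA (10.4 to 11.3) and 13.8 with both (13.3 to 14.2). It was 1.61-fold higher in the Ptbp1 knockdown (1.53 to 1.69), while the difference between control and the Ptbp2 knockdown was small. Gad1, which makes the transmitter GABA, stood at 3.54 CPM in control (3.30 to 3.80), 6.01 with the Ptbp1 shRNA (5.67 to 6.36), 3.21 with the Ptbp2 shRNA (2.97 to 3.46) and 3.81 with both (3.57 to 4.07). Only the Ptbp1 knockdown lay apart, 1.70-fold above control (1.55 to 1.86). FPKM did not call Gad1 there: it went from 0.945 (0.632 to 1.26) to 1.90 (1.16 to 2.12), with overlapping intervals.

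Kcnh7, a potassium channel of the ERG family (chromosome 2, 62541003 to 63022392, minus strand), was the only member called by exon reads in all 3 comparisons. It had 142 reads in control, 305 with the Ptbp1 shRNA, 286 with the Ptbp2 shRNA and 398 with both, which is 0.645 CPM (0.543 to 0.760), 1.54 (1.37 to 1.73), 1.36 (1.21 to 1.53) and 1.67 (1.51 to 1.84). The control lay below all 3 knockdowns, which overlapped each other. The ratios to control were 2.39 (1.95 to 2.94), 2.11 (1.72 to 2.60) and 2.59 (2.13 to 3.15). With a pseudocount of 1 CPM the log2 difference in the Ptbp2 knockdown was 0.52 and missed the threshold, and a minimum of 500 reads left Kcnh7 untested. By FPKM it stood at 0.0994 in control and 0.610, 0.529 and 0.838 in the Ptbp1, Ptbp2 and double knockdowns. These lie under the minimum of 1 FPKM, so Kcnh7 was not tested by FPKM. Without that minimum only the double knockdown was called. Its level was low: 0.17 CPM per kilobase in control, beside 2.29 for Scn2a1. By its mean over all libraries Kcnh7 belongs to the genes of 1 to 10 CPM. These had median log2 differences of 0.36, 0.01 and 0.15 in the Ptbp1, Ptbp2 and double knockdowns. Genes with a mean under 1 CPM, where Kcnh7 stood in control, had 0.69, 0.12 and 0.31. The differences of Kcnh7 were 1.14, 0.97 and 1.25.

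The granin genes and Vgf were not called in any comparison. Chga, Chgb, Scg2 and Scg3 encode granins, cargo and sorting proteins of dense-core granules. Among these 4, Chgb was highest, per kilobase of exon too, at 927 CPM in control and 876, 868 and 877 in the Ptbp1, Ptbp2 and double knockdowns. Chga stood at 156 CPM in control and 133, 138 and 119.6 in the same knockdowns, below control in all 3. Scg3 stood at 269, 259, 211 and 223 CPM, and Scg2 at 104, 117, 94.96 and 110.1. The neuropeptide precursor Vgf, measured by FPKM only, stood at 275, 279, 258 and 212 FPKM. In the Ptbp1 knockdown, where all genes of 100 CPM or more had a median log2 difference of -0.19, the 5 target genes of that class (the granins and Rundc3a) had one of -0.06.

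Other targets above control in the Ptbp1 knockdown missed the threshold. Celsr3, an adhesion receptor of axon guidance, stood at 84.2 CPM in control, 125 with the Ptbp1 shRNA, 82.6 with the Ptbp2 shRNA and 95.8 with both, a ratio of 1.49 in the Ptbp1 knockdown (1.46 to 1.52). By FPKM it was called higher (7.05 to 11.1). Rundc3a stood at 127, 179.6, 118 and 129.9 CPM, and the calcium sensor Syt7 at 20.03, 27.97, 21.6 and 27.3 CPM. The axon growth protein Olfm1 stood at 73.2, 83.4, 59.7 and 77.6 CPM. The calcium channel Cacna1a had 2.06, 2.45, 1.79 and 2.00 CPM, whereas FPKM called it higher in every knockdown (1.68 to 3.25, 3.14 and 3.12), so the measures gave the same sign in the Ptbp1 knockdown (log2 0.24 and 0.67) and opposite signs in the Ptbp2 knockdown (-0.20 and 0.63) and the double knockdown (-0.04 and 0.62). Cdk5r2, a neuronal activator of CDK5 with FPKM only, stood at 13.3, 18.2, 8.98 and 11.9 FPKM and was not called. The calcium buffer Calb1 had 0 reads in every library and the neurotrophin Bdnf at most 20. By FPKM the background was 9.22% higher and 4.21% lower with the Ptbp1 shRNA, 5.42% and 7.32% with the Ptbp2 shRNA and 8.36% and 5.51% with both. FPKM called 5 members higher and 0 lower with the Ptbp1 shRNA, 2 higher with the Ptbp2 shRNA and 2 higher with both.

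Among cassette exons of the target genes, 1 of 116 was called higher in the Ptbp1 knockdown and 1 of 116 in the double knockdown, both times the same exon of Syt7. The exon has 132 nucleotides and is coding (chromosome 19, 10496247 to 10496378). Inclusion was 8.47% in control (3.46 to 25.6), 47.1% with the Ptbp1 shRNA (33.8 to 62.1), 3.23% with the Ptbp2 shRNA (0.572 to 16.2) and 46.7% with both (32.5 to 62.7). The 2 libraries with the Ptbp1 shRNA were high and the others low. Between 29.5 and 43.5 informative reads stood behind each value. In the double knockdown the junctions were uneven, with 31 reads upstream and 4 downstream, against 20 that skip the exon. In the Ptbp1 knockdown these numbered 25, 16 and 23, and in control 2, 3 and 27. The downstream junction alone would give lower inclusion in the double knockdown. A 158-nucleotide exon of Rundc3a was at 93.3% in control and at 90.5%, 83.0% and 84.3% in the Ptbp1, Ptbp2 and double knockdowns. Target gene exons were named after their values were seen.
Syt7: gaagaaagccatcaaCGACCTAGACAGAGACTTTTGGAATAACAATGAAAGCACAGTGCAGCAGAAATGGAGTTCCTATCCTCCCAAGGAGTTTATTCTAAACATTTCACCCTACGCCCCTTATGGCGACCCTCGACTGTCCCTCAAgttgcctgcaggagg
The capitals are the alternative exon, in the region between the membrane anchor and the calcium-binding domains of the protein.

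The list of 52 further REST target genes, of which 39 had enough exon reads, had median differences of opposite sign in the single knockdowns, though most genes were not called. In the Ptbp1 knockdown 10 were called higher and 1 lower, with 32 of 39 above control (51.94% of all genes tested) and a median log2 difference of 0.31. With the Ptbp2 shRNA 0 were higher and 10 lower, with 4 of 39 above control (51.4% of all genes) and a median of -0.42. In the double knockdown 2 were higher and 5 lower, with a median of 0.09. The medians kept their signs under all 4 scalings. This list was chosen with earlier results of these data known, so its values describe the listed genes and not REST targets at large. In the Ptbp1 knockdown the 14 further targets of 100 CPM or more had a median of 0.31, where all genes of that class had one of -0.19. In the Ptbp2 knockdown those 14 had a median of -0.39 beside -0.01.

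The 3 highest in the Ptbp1 knockdown were Th and Dbh, which make dopamine and noradrenaline, and Sez6. Th stood at 0.650 CPM in control (0.548 to 0.765), 3.58 with the Ptbp1 shRNA (3.32 to 3.85), 0.162 with the Ptbp2 shRNA (0.112 to 0.226) and 1.03 with both (0.902 to 1.16). Dbh stood at 51.0, 199, 19.1 and 54.7 CPM in the same order. Both were high in the Ptbp1 knockdown and low in the Ptbp2 knockdown, by ratios to control of 5.51 and 3.90 in the first and by 4.02-fold and 2.68-fold lower levels in the second. Both are also among the neuroblastoma markers, and their part in the summed marker level was not tested. Sez6, a dendrite protein, stood at 5.63, 15.5, 4.39 and 8.14 CPM.

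Gdap1, a mitochondrial fission factor, was the further target called lower in every knockdown, but its call in the Ptbp1 knockdown was lost with scaling by the total or by the upper quartile and was not made by FPKM. It stood at 53.7 CPM in control, 34.6 with the Ptbp1 shRNA, 14.5 with the Ptbp2 shRNA and 18.1 with both. That is 1.55-fold (1.505 to 1.597), 3.70-fold (3.56 to 3.85) and 2.96-fold (2.86 to 3.07) lower. Pcsk1, a prohormone convertase that cuts peptides in granules, stood at 0.545 CPM in control, 0.405 with the Ptbp1 shRNA, 0.124 with the Ptbp2 shRNA and 0.256 with both, which is 4.41-fold lower with the Ptbp2 shRNA (2.87 to 7.02, from 120 reads to 26). Its relative Pcsk2 stood at 16.2, 17.5, 11.7 and 7.90 CPM in the same order, 2.05-fold lower with both (1.93 to 2.16). Stmn2, a regulator of microtubules in growth cones, was 2.33-fold lower in the double knockdown (2.28 to 2.37). Scn3b, an auxiliary sodium channel subunit, was 1.58-fold higher there (1.54 to 1.62), from 51.6 to 81.4 CPM. Th was the other further target called higher in the double knockdown, at 1.58-fold (1.28 to 1.96), a call lost when the scaling factors came from all genes with reads.

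Of 12 regulators of REST protein and splicing, Prickle1, a partner known to affect the nuclear location of REST, was called higher in all 3 comparisons. It stood at 2.71 CPM in control, 4.68 with the Ptbp1 shRNA, 4.45 with the Ptbp2 shRNA and 4.31 with both. Srrm3, a neural splicing factor for microexons, was 1.57-fold higher in the Ptbp1 knockdown (1.52 to 1.63). Its relative Srrm4, known for inclusion of the neural REST exon, was not called, with log2 differences of 0.23, -0.03 and -0.03. Fbxw11, which marks REST for degradation together with its relative Btrc, was 1.63-fold lower in the Ptbp1 knockdown (1.598 to 1.65), a call lost with scaling by the total. FPKM called neither Prickle1, Srrm3 nor Fbxw11 in any comparison; Srrm3 went from 12.2 to 13.7 FPKM in the Ptbp1 knockdown. Of the 22 further corepressor subunits with enough reads, 0 were higher and 1 lower in the Ptbp1 knockdown (Brms1, 1.54-fold, a call lost with scaling by the total or the upper quartile and not made by FPKM), 0 higher and 1 lower in the Ptbp2 knockdown (Rcor3, above), and none in the double knockdown.

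RE1-like sequences were looked for in the RefSeq promoters of GRCm38, which run from 250 bases before to 50 after each gene start. The consensus RE1, read on both strands, was allowed at most 4 mismatches over its 19 fixed bases; its other bases may be any letter. Of all 32851 promoters 66 held such a match, which is 0.201%. Among the target genes with a promoter in the table (11 of 17), Celsr3 held a match, and among the further targets (32 of 52) Syn1, Gria2, Rph3a and Chrm4 did. No complex member with a promoter (9 of 11) held one. Capitals below mark the bases that match the consensus, and lower case a mismatch or a free base, for the member and for both further targets with the fewest mismatches.
Celsr3 (chr9:108825918-108825938): TTCAGCACCgtGGgCAGcaCt
Syn1 (chrX:20921130-20921150): TTCAGCACCgCGGtCAGaGCC
Gria2 (chr3:80802989-80803009): TTtAGCACCgCGGACAGcGCt
The Celsr3 sequence lies on the gene's own strand. The promoter of Scg2 holds the left and right pieces of the motif, CAGCACC and GGACAG, joined with no spacer on the opposite strand.
Scg2: TTCAGCACCGGACAG
The same pieces on 1 strand, at most 2 bases apart, are in 16 of all promoters, which is 0.0487%. A match is a description of letters and not a measured binding site.

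Of the genes with these sequences, Gria2 and Syn1 are given for their match, with their levels known. Gria2, an AMPA receptor subunit, stood at 9.14 CPM in control (8.74 to 9.55), 24.2 with the Ptbp1 shRNA (23.5 to 24.9), 4.43 with the Ptbp2 shRNA (4.15 to 4.72) and 9.30 with both (8.92 to 9.70). It was 2.65-fold higher in the Ptbp1 knockdown and 2.06-fold lower in the Ptbp2 knockdown, and level with control in the double knockdown. Syn1, a synaptic vesicle protein, was not called, with log2 differences of 0.06, -0.46 and -0.20 in the Ptbp1, Ptbp2 and double knockdowns. Celsr3 is given above.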

How the data were processed

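The 4 poly(A) RNA libraries, 1 per group, were grouped by their labels. The submitters' processing notes name CASAVA, TopHat, Cufflinks and build mm9, with no versions. The authors deposited FPKM with intervals for transcripts assembled per library; each library's FPKM were divided here by its own sum of FPKM times length. Per the file headers, a coverage signal and a Cufflinks score come with the transcripts, the score not being used. The deposited SpliceTrap tables hold read counts per junction, exon coverage and an inclusion ratio, which is a fraction. Exon reads were taken from that coverage, each exon from the trio with the most reads, so junction reads count on both exons.

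Genes were named by RefSeq accession (26532 of 27207 matched to the GRCm38.p6 table), and 94.6% of 218362 cassette trios were named. Scaling was by median of ratios over genes with at least 50 reads in every library, with a pseudocount of 0.1 CPM. FPKM were compared on the log2(FPKM + 1) scale, with at least 1 FPKM in 1 of both libraries, status OK and intervals apart. Ratios to control have exact binomial intervals. No test across samples was possible with 1 library per group. Python 3.11.15 was used with pandas, numpy, scipy and matplotlib.

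The members and lists were chosen with earlier results of these data known. The text names in full the members called by exon reads in at least 1 comparison, Rest, and complex members with a called exon; of further lists, at most the 3 largest called differences per direction; and called exons of corepressors. Exceptions are stated where they occur. Some results are not reported here.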

Additional observations from a re-analysis of the deposited data

How the results depend on the processing

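With 1 library per group, no library could be left out and every value has depth as its only measured error. No paired analysis was possible because each group has a single library. Alternatives that each counted junction once, or took scaling factors from all genes with reads, were added after seeing the data. Members called by exon reads in the Ptbp1 knockdown numbered 4, and 7 with scaling by the total of exon reads and 1 at 2-fold. In the Ptbp2 knockdown they numbered 4, and 1 at 2-fold and 2 by rescaled FPKM. In the double knockdown they numbered 3, and 1 at 2-fold. By rescaled FPKM the Ptbp1 knockdown gave 5, and 1 with a pseudocount of 5 and 3 when the median of all genes was centred on control. The Ptbp2 knockdown gave 2, and 1 with a pseudocount of 5. The double knockdown gave 2, and 0 with a pseudocount of 5 and 1 when the median was centred. Exons of complex members called in the Ptbp1 knockdown numbered 0, and 1 at a difference of 10 points (Sin3a). In the Ptbp2 knockdown they numbered 1, and 2 at 10 points or by the SpliceTrap ratio (Ehmt2 and Sin3a). All other alternatives kept these counts within 1.5 times, but not always the same genes. In the double knockdown exon reads called Ctdspl, Kcnh7 and Rcor1, and FPKM called Cacna1a and Hdac1, with no gene shared. In the Ptbp1 knockdown only Scn2a1 and Scn3a were called by both measures, and in the Ptbp2 knockdown only Ctdsp2. The log2 differences of members called by exon reads kept their sign in every alternative, while Hdac1 and Cacna1a, called by FPKM only, had another sign by exon reads in some comparisons. The cause of the differences between exon reads and FPKM was not tested.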

Other observations

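Short exons of further REST target genes differed between the libraries. Those named were chosen after their values were seen. In the Ptbp1 knockdown 4 of 388 cassette exons of these genes were called higher and 0 lower, in the double knockdown 4 of 387 and 0, and in the Ptbp2 knockdown 0 higher and 1 of 365 lower, beside the background shares of all cassette exons of 0.205% higher, 0.311% higher and 0.106% lower in those libraries. The synaptic priming factor Unc13a has a coding exon of 30 nucleotides (mm9 chromosome 8, 74190540 to 74190569) at 35.4% in control, 78.7% with the Ptbp1 shRNA, 30.9% with the Ptbp2 shRNA and 88.6% with both. The adhesion molecule L1cam has a coding exon of 12 nucleotides (chromosome X, 71100991 to 71101002) at 19.1%, 54.0%, 19.1% and 63.4% in the same order, and one of 15 nucleotides (71112361 to 71112375) at 51.0%, 80.97%, 38.6% and 80.7%. No read joined the 12-nucleotide exon to its upstream neighbour in any library. Its values average 0 upstream reads with 298, 845, 174 and 592 downstream reads, against 632, 360, 369 and 171 that skip the exon. Its downstream junction alone would give higher inclusion in every library. In control the Unc13a exon had 11 upstream and 57 downstream reads against 62 that skip it. The 15-nucleotide exon had 35, 302 and 162 there. For both, the upstream junction alone would give lower inclusion in every library. These 3 exons were high in both libraries with the Ptbp1 shRNA, where the level of L1cam itself was 392 CPM in the Ptbp1 knockdown and 225 in the double knockdown, beside 295 in control and 164 in the Ptbp2 knockdown. They are shown because the change is the insertion of these few bases (capitals, with 15 bases of each neighbouring exon, from GENCODE M21).
Unc13a: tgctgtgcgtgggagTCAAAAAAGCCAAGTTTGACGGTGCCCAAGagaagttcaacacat
L1cam, 12 nucleotides: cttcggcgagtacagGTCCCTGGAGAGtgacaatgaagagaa
L1cam, 15 nucleotides: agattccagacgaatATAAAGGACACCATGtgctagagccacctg

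In the opposite group, an exon of 97 nucleotides in the calcium channel Cacna1b (chromosome 2, 24480758 to 24480854) was included at 92.5% in control (85.3 to 96.3), 93.5% with the Ptbp1 shRNA (88.2 to 96.6), 71.4% with the Ptbp2 shRNA (59.2 to 81.5) and 80.0% with both (71.8 to 86.3). Its length shifts the reading frame. An exon of 77 nucleotides in Terf2, a telomere protein with a splice form that binds REST, was included at 44.1%, 31.7%, 82.6% and 35.8%, from 23 to 54.5 informative reads. Its junctions were uneven: in the Ptbp2 knockdown 2 upstream and 36 downstream reads stood against 4 that skip the exon. In control these numbered 5, 25 and 19. The ratio from SpliceTrap was 32.0%, 22.0%, 50.3% and 26.1% in the same order, a smaller difference. The NMDA receptor gene Grin1, also chosen after its values were seen, stood at 35.0 CPM in control, 60.6 with the Ptbp1 shRNA, 17.3 with the Ptbp2 shRNA and 37.6 with both.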
